A study of Rattus norvegicus with 7 samples.

Results

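The genes described here encode cytokines, chemokines, ligands of the tumour necrosis factor (TNF) superfamily, colony-stimulating factors and the receptors of all of these. They were chosen by symbol, and 88 of the 14702 genes in the authors' deposited table belong to them. The symbols begin with Il, Ccl, Ccr, Cxcl, Cxcr, Cx3c, Ackr, Tnfrsf, Tnfsf or Csf, with a number where the family uses one. No symbol occurred more than once. One gene, Il4i1, entered by its symbol although it encodes an enzyme induced by an interleukin, and it is counted with the rest. RefSeq, in its gene table of the rat assembly GRCr8, holds 173 protein-coding genes whose symbols fit the same pattern, so 85 of them are not covered by what follows.

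RNA sequencing compared the thyroarytenoid muscle, an intrinsic muscle of the larynx within the vocal fold, between 4 wild type (WT) and 3 Pink1-/- rats. All 7 rats were Long Evans females aged 8 months, so strain, sex and age were shared by both groups. Pink1 encodes a kinase of the mitochondrial surface that starts the removal of damaged mitochondria, and the Pink1-/- group lacks both working copies. How the knockout allele was made is not stated in the labels. The values used are those of 1 comparison, Pink1-/- against WT, so values per rat, the depth of each library and the spread between rats are not known here. Pink1 transcripts were 30.1-fold lower in the Pink1-/- group, in the authors' deposited table (adjusted p 8.24e-49).

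Cytokines are secreted or surface proteins with which cells signal over short distances, and most act through receptors made of a ligand-binding chain and a shared signalling chain. Chemokines are a class that directs the movement of leukocytes through G protein-coupled receptors, while atypical chemokine receptors bind the same ligands and clear them without that signal. TNF family ligands act on receptors that lead to NF-κB or to cell death, and several pathways have soluble antagonists or decoy receptors that hold the ligand away from the signalling chain. In skeletal muscle such signals come from resident macrophages, vessels, connective tissue and the fibres themselves, and in the vocal fold the overlying mucosa is a further source.

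None of the 88 genes passed an adjusted p under 0.05 in the authors' deposited table, which was made with edgeR. Over all genes the same threshold was passed by 3.05% of 14702, with 1.37% higher and 1.68% lower in Pink1-/- muscle. At an unadjusted p under 0.05 there were 10 of the 88 genes (11.4%), 4 higher and 6 lower, against 17.0% of all genes, 9.04% higher and 7.99% lower. The smallest adjusted p among the 88 was 0.105, for Il1r2, in the authors' deposited table. Log2 fold changes (Pink1-/- over WT) ran from -1.99 for Il1r2 to 1.37 for Tnfsf18 in the authors' deposited table. A stricter threshold of 0.01, passed by 1.20% of all genes, could add none to these. With a threshold of 0.1 on the adjusted p none of the 88 passed either, where 5.26% of all genes did. Nor did any with the median of all genes set to 0 or with genes of at least 1 CPM on average, where 3.26% and 2.63% of the genes tested passed. The median over the 88 genes was -0.12, beside -0.02 over all genes, and 55 of the 88 (62.5%) lay below 0, beside 52.0% of all genes.

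**Figure D1:**
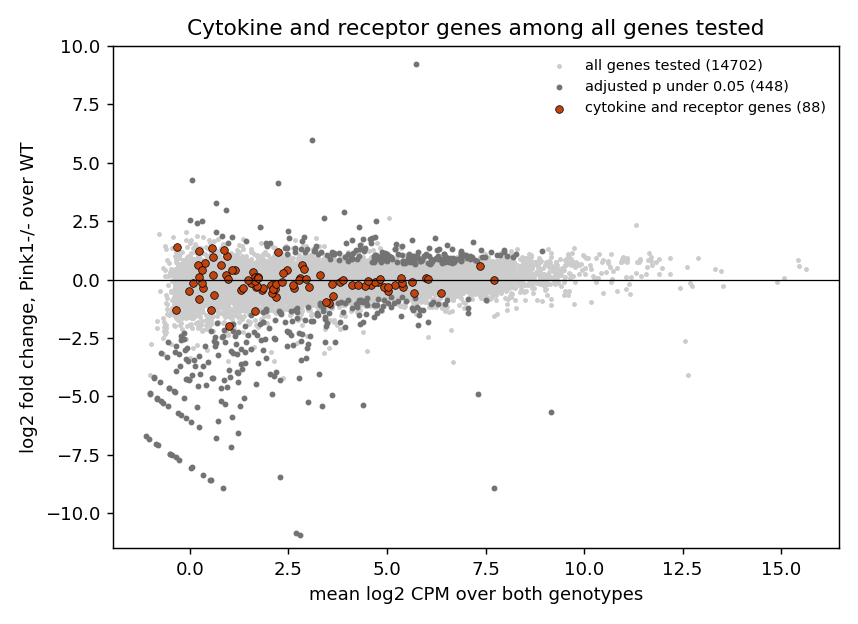
Each point is 1 gene, with the mean log2 CPM over both genotypes on the x axis and the log2 fold change (Pink1-/- over WT) on the y axis. Light grey points are all 14702 genes, dark grey points the 448 at an adjusted p under 0.05, and red points the 88 cytokine and receptor genes, which lie between -1.99 and 1.37 with none among the dark grey.

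These genes were measured with less precision than the typical gene. CPM are counts scaled to a common library total, and the mean log2 CPM had a median of 2.14 over the 88 genes and 3.97 over all genes in the authors' deposited table. An approximate standard error (SE), taken as the size of the log2 fold change over the square root of its likelihood ratio, had a median of 0.40 over the 88 genes and 0.27 over all genes. The 95% intervals built from it lay wholly within a 2-fold change in either direction for 36 of the 88 genes (40.9%) and for 60.9% of all genes. The likelihood ratios had a median 1.96 times that of a chi-square distribution. Division by that factor widens each SE 1.40-fold, and the intervals then lay within a 2-fold change for 19 of the 88 genes (21.6%) and for 42.9% of all genes. The 19 include Il6st, Csf1, Csf1r, Tnfrsf1a, Tnfrsf1b, Il1r1, Il6r and Il4r. With the wider SE, 1 of the 88 genes (Il1r2) was at an unadjusted p under 0.05 in place of 10. Over all 14702 genes there were 836 in place of 2503. All intervals given below are those before widening.

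**Figure D2:**
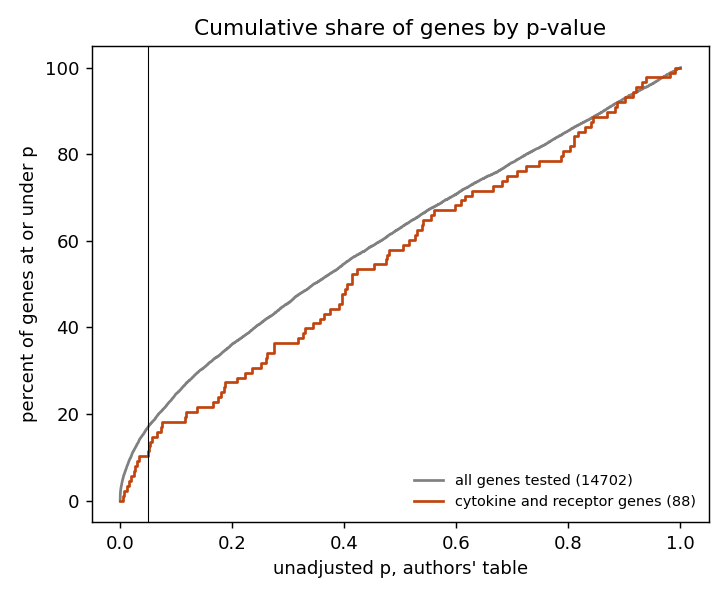
The x axis is the unadjusted p of the authors' deposited table and the y axis the percent of genes at or under that p, in grey for all 14702 genes and in red for the 88 cytokine and receptor genes. At the vertical line, a p of 0.05, the red curve stands at 11.4% and the grey one at 17.0%.

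The smallest p-values belonged to the interleukin-1 system. In it the cytokines Il1a and Il1b signal through the receptor Il1r1 and its partner Il1rap, while Il1rn blocks that receptor and Il1r2 is a decoy without a signalling tail. Il1r2 (ENSRNOG00000014378) stood at -1.99 in the authors' deposited table (adjusted p 0.105). Its implied level was 2.92 CPM in WT and 0.735 CPM in the Pink1-/- group, and the interval of its log2 fold change ran from -3.41 to -0.58. Il1rn (ENSRNOG00000005871) stood at -0.99 in the authors' deposited table (adjusted p 0.159), and its implied levels were 14.7 CPM (WT) and 7.38 CPM (Pink1-/-), with an interval from -1.77 to -0.21. Il1rap (ENSRNOG00000001928) stood at -0.70 in the authors' deposited table (adjusted p 0.121), and its implied levels were 14.9 CPM (WT) and 9.14 CPM (Pink1-/-), with an interval from -1.22 to -0.19. These 3 intervals lie below 0, and no adjusted p passed. With the wider SE the intervals ran from -3.97 to -0.011 for Il1r2, from -2.09 to 0.10 for Il1rn and from -1.43 to 0.018 for Il1rap, so that of Il1r2 alone stayed below 0. The signalling receptor Il1r1 stood at -0.11 in the authors' deposited table, with an implied 28.1 CPM in WT and 26.1 CPM in Pink1-/-. Its interval from -0.53 to 0.32 holds no change of 2-fold. Il1a and Il1b had no row among the table's symbols, so the ligands of this system are not covered.

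Under scaling that makes the summed implied CPM equal in both genotypes, every log2 fold change is lower by 0.21, and the median of all genes becomes -0.23. With that scaling Il1rap was the 1 gene of the 88 (1.14%) that passed, with an adjusted p of 0.0226, where 4.29% of all genes passed and 3.86% passed as lower. Its log2 fold change was then -0.91. The number of the 88 genes above 0 became 19 in place of 33, and their median -0.33.

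Promoter windows of the genes with the smallest p are shown for the 3 of the first 4 that have an entry in the RefSeq promoter table of GRCr8. Each runs from 250 bases before to 50 bases after the annotated start of the gene, and the build used by the authors is not known here. The windows lie at chr11:87704293-87704592 (- strand), chr3:27520072-27520371 (+ strand) and chr14:16006916-16007215 (+ strand). Capitals mark matches on either strand to the kappa-B motif GGGRNWYYCC bound by NF-κB, to the STAT motif TTCNNNGAA or to TATAAA. In these motifs R is A or G, W is A or T, Y is C or T, and N is any base.
Il1rap: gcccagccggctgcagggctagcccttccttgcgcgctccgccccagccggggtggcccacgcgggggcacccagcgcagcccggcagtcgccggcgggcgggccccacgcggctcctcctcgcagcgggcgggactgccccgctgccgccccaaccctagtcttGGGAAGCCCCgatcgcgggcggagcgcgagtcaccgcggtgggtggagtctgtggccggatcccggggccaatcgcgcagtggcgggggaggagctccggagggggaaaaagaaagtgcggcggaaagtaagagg
Il1rn: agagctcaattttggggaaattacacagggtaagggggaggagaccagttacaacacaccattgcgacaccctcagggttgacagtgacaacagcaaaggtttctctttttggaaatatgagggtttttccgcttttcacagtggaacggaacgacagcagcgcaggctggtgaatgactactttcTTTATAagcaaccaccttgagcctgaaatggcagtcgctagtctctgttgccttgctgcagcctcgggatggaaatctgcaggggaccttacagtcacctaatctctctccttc
Cxcl9: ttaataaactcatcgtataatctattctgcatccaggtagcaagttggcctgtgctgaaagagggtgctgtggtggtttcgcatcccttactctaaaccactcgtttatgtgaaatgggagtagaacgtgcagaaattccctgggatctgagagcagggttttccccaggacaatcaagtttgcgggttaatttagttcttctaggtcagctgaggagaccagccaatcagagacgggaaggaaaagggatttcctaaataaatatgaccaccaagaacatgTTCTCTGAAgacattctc
Il1rap holds a kappa-B match on the reverse strand that begins 85 bases before the start. Il1rn holds a TATAAA match on the reverse strand that begins 64 bases before the start. Cxcl9 holds a TTCNNNGAA match that begins 32 bases after the start. No marked match overlaps another kind of motif in these windows, and the Cxcl9 match fits its motif on both strands. Over all 33469 promoters in that table, 4.18% hold a kappa-B match, 8.87% a TTCNNNGAA match and 14.2% a TATAAA match. Among the 68 of the 88 genes with an entry there, 8 (11.8%), 8 (11.8%) and 11 (16.2%) hold them. Il1rap was the only gene with a kappa-B match among those at an unadjusted p under 0.05 with an entry. A match describes the letters of a window and shows no binding.

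All 5 interleukin antagonists and binding proteins lay below 0, with a median of -0.67 and none called. Beside Il1r2 and Il1rn these are Il13ra2, a decoy for interleukin 13, at -0.67, Il22ra2, a soluble receptor for interleukin 22, at -0.50, and Il18bp, which binds interleukin 18, at -0.24 in the authors' deposited table. That table of the authors lists 0.621, 0.729 and 0.814 as the adjusted p of Il13ra2, Il22ra2 and Il18bp. Neither other scaling tried could lift any of the 5 above 0. Equal summed CPM lowers every value by 0.21, and the other scaling sets a median of -0.02 to 0. Summed over the 5 genes, the implied level was 25.0 CPM in WT and 13.8 CPM in the Pink1-/- group.

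Of the 8 interleukins, 7 lay below 0, with a class median of -0.33. Il15, which sustains natural killer cells and memory T cells and is also made by muscle fibres, was the exception at 1.03 in the authors' deposited table (adjusted p 0.241). Its implied level was 1.33 CPM in WT and 2.72 CPM in the Pink1-/- group, with an interval from 0.08 to 1.97. Its receptor chains Il15ra, Il2rb and Il2rg stood at 0.19, 0.63 and 0.29 in the authors' deposited table (adjusted p 0.890, 0.531 and 0.739). Il33, an alarm signal released by damaged epithelium, endothelium and connective tissue, stood at -0.56 in the authors' deposited table (adjusted p 0.314), and its implied levels were 59.5 CPM (WT) and 40.5 CPM (Pink1-/-). Il1rl1, the chain that binds Il33, stood at 0.08 in the authors' deposited table. Il16, a chemoattractant of T cells, stood at -0.30 and Il17d, of the interleukin 17 family, at -0.74 in the authors' deposited table (adjusted p 0.583 and 0.433). Il18 (-0.40), Il7 (-0.36), Il23a (-0.15) and Il34 (-0.09) complete the class in the authors' deposited table. Il7r, the receptor of Il7, stood at 0.41, and the Il18 receptor chains Il18r1 and Il18rap at -0.21 and 0.42 in the authors' deposited table.

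The 29 interleukin receptor genes had a median of -0.11, with 11 above 0 (6 with both genotypes scaled to the same summed CPM), none called, and 2 (6.90%) at an unadjusted p under 0.05. Those 2 were Il1rap and Il17re, a receptor of epithelial cells for interleukin 17C. Il17re stood at -0.95 in the authors' deposited table (adjusted p 0.193), and its implied levels were 13.8 CPM (WT) and 7.14 CPM (Pink1-/-), with an interval from -1.76 to -0.15. The other interleukin 17 receptors, Il17ra (-0.10), Il17rb (-0.22), Il17rc (-0.38) and Il17rd (-0.29), lay nearer 0 in the authors' deposited table. The interleukin 6 receptors were closely bounded. Il6st (gp130), the signalling chain shared by the interleukin 6 family, stood in the authors' deposited table at -0.03, with an implied 214 CPM in WT and 209 CPM in Pink1-/-, and its interval ran from -0.48 to 0.42. Il6r, the binding chain, stood at -0.14 in the authors' deposited table (adjusted p 0.826), and its interval ran from -0.59 to 0.32. Il11ra1, the binding chain for interleukin 11, stood at 0.09 in the authors' deposited table. Il13ra1 and Il4r, which together bind interleukins 4 and 13, stood at -0.49 and -0.24 in the authors' deposited table (adjusted p 0.510 and 0.680). The remaining receptor genes of this class, from Il20ra at -0.58 to Il9r at 0.64 in the authors' deposited table, had adjusted p-values of 0.598 or more. They were Il20ra, Il1rl2, Il31ra, Il12rb2, Il10rb, Il20rb, Il2ra, Il3ra, Il10ra and Il9r.

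**Figure D3:**
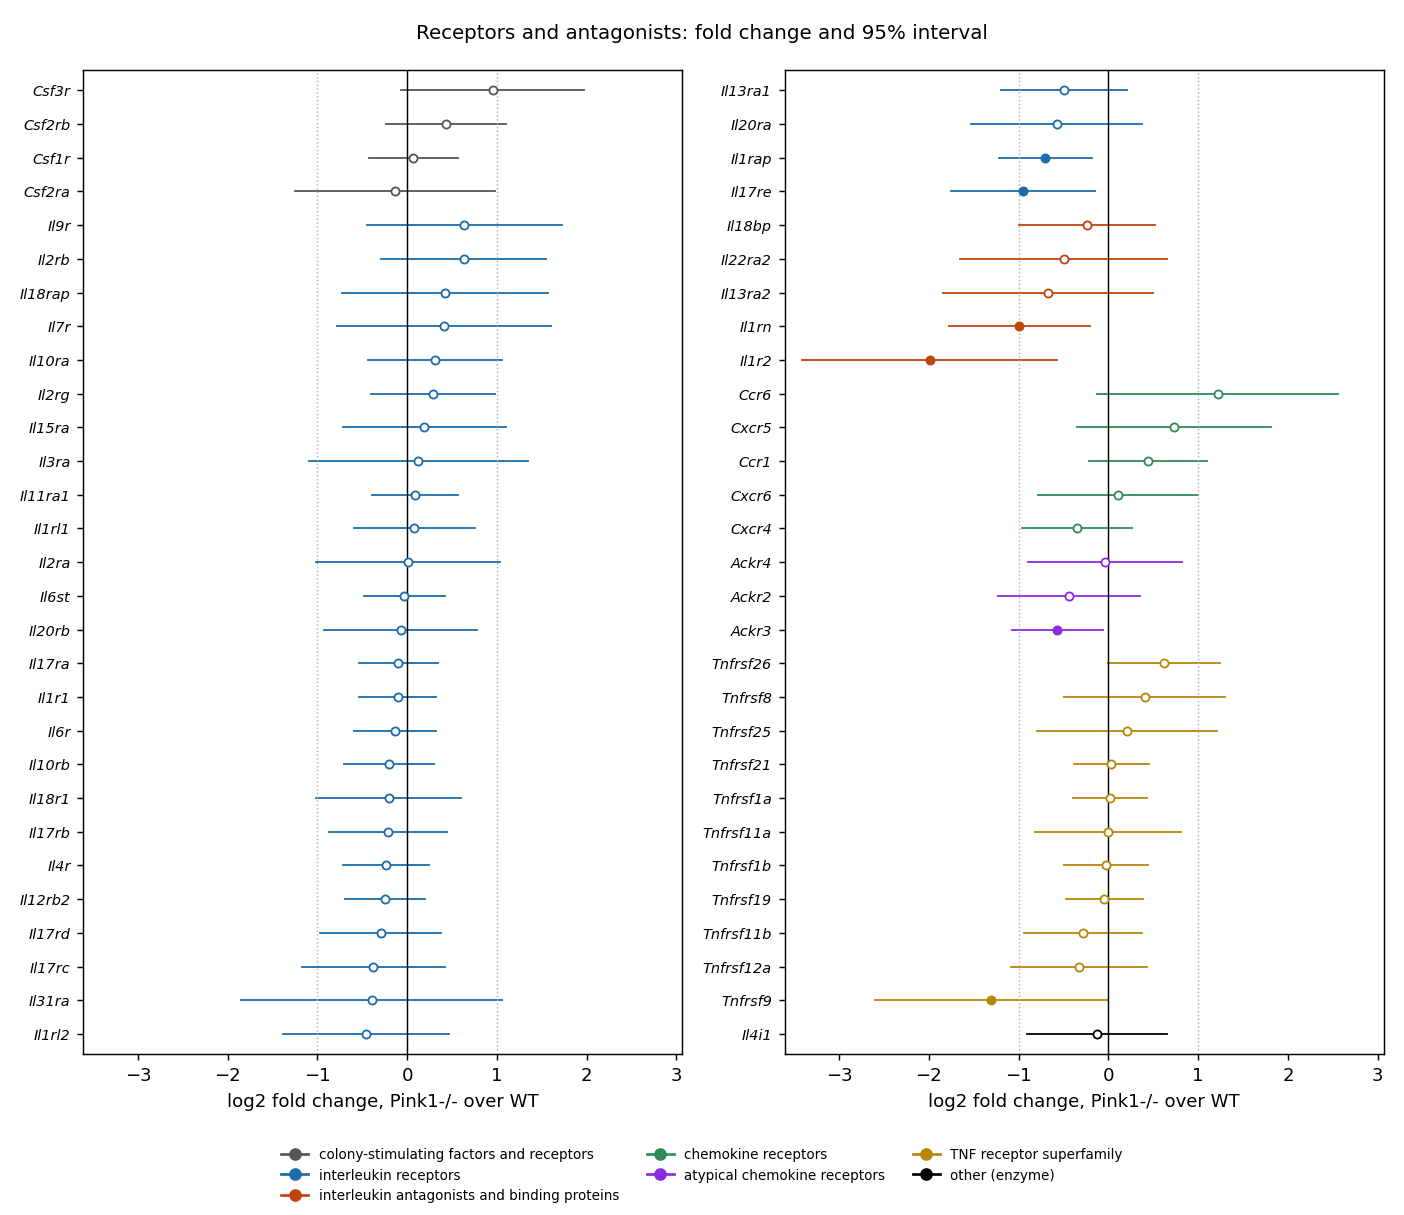
Each row is 1 receptor, antagonist or enzyme gene, with its log2 fold change (Pink1-/- over WT) as a point and the approximate 95% interval as a line, coloured by class. Filled points have an unadjusted p under 0.05, dotted lines mark a 2-fold change, and all 5 interleukin antagonists and binding proteins lie left of 0.

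Among the chemokines, Cxcl12 and its receptors gave values in both directions. Cxcl12, which retains progenitor cells and leukocytes in tissues, stood at 0.58 in the authors' deposited table (adjusted p 0.235). Its implied levels were 136 CPM (WT) and 203 CPM (Pink1-/-), with an interval from 0.05 to 1.11. Ackr3, the atypical receptor that clears Cxcl12, stood at -0.57 in the authors' deposited table (adjusted p 0.220), and its implied levels were 95.6 CPM (WT) and 64.5 CPM (Pink1-/-), with an interval from -1.07 to -0.07. Cxcr4, the signalling receptor of Cxcl12, stood at -0.35 in the authors' deposited table (adjusted p 0.621). The ligand lay above 0 and both of its receptors below, with none called.

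Cxcl9, a T cell attractant induced by interferon gamma, had the smallest p of any chemokine. Cxcl9 (ENSRNOG00000022242) stood at 1.20 in the authors' deposited table (adjusted p 0.172), and its implied levels were 3.04 CPM (WT) and 6.98 CPM (Pink1-/-), with an interval from 0.23 to 2.17. Its receptor Cxcr3 and the related ligands Cxcl10 and Cxcl11 had no row among the table's symbols. Cxcl13, which draws B cells, stood at -1.32 with an adjusted p of 0.300, and its receptor Cxcr5 at 0.73 with 0.538, in the authors' deposited table. Cxcl16 and its receptor Cxcr6 stood at -0.25 and 0.11 in the authors' deposited table. Cxcl14 and Cxcl17, chemokines of epithelia, stood at -0.28 and 0.12, and Cx3cl1, the membrane-bound chemokine of endothelium and neurons, at -0.31 in the authors' deposited table (adjusted p 0.706 for Cx3cl1).

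The 8 CC chemokines had a median of -0.27 with 3 above 0, none called and none at an unadjusted p under 0.05. The estimates farthest from 0 belonged to weakly expressed genes with wide intervals. Ccl19, a ligand of Ccr7 in lymphoid tissue, stood in the authors' deposited table at 1.37 with an interval from -0.13 to 2.87, and Ccl28, a chemokine of mucosal epithelium, at -1.36 with an interval from -3.15 to 0.43. The authors' deposited table gives them adjusted p-values of 0.353 and 0.465. Ccl20 and its receptor Ccr6 stood at 1.27 and 1.22 in the authors' deposited table (adjusted p 0.434 and 0.359). Ccl2, the main attractant of monocytes, stood at -0.83 in the authors' deposited table (adjusted p 0.523), and its interval from -2.02 to 0.36 spans 0. Ccl21, the other Ccr7 ligand, stood at -0.34 and Ackr4, which clears both Ccr7 ligands, at -0.04 in the authors' deposited table. Mice carry near-identical copies of Ccl21, and whether reads were split between copies in the rat is not known here. Ccl11 and Ccl24, attractants of eosinophils, stood at -0.32 and -0.23, and Ccl6 at 0.03, in the authors' deposited table. Ackr2, a scavenger of inflammatory CC chemokines, stood at -0.44, and Ccr1, a receptor of inflammatory chemokines, at 0.44, in the authors' deposited table. For Ackr2 and Ccr1 the authors' deposited table has adjusted p-values of 0.636 and 0.538. All 3 atypical receptors lay below 0 with none called, and neither other scaling could lift any of them above 0. The 6 signalling chemokine receptors had a median of 0.28, with 5 above 0 and none called. With the same summed CPM in both genotypes that median was 0.06, with 3 above 0.

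**Figure D4:**
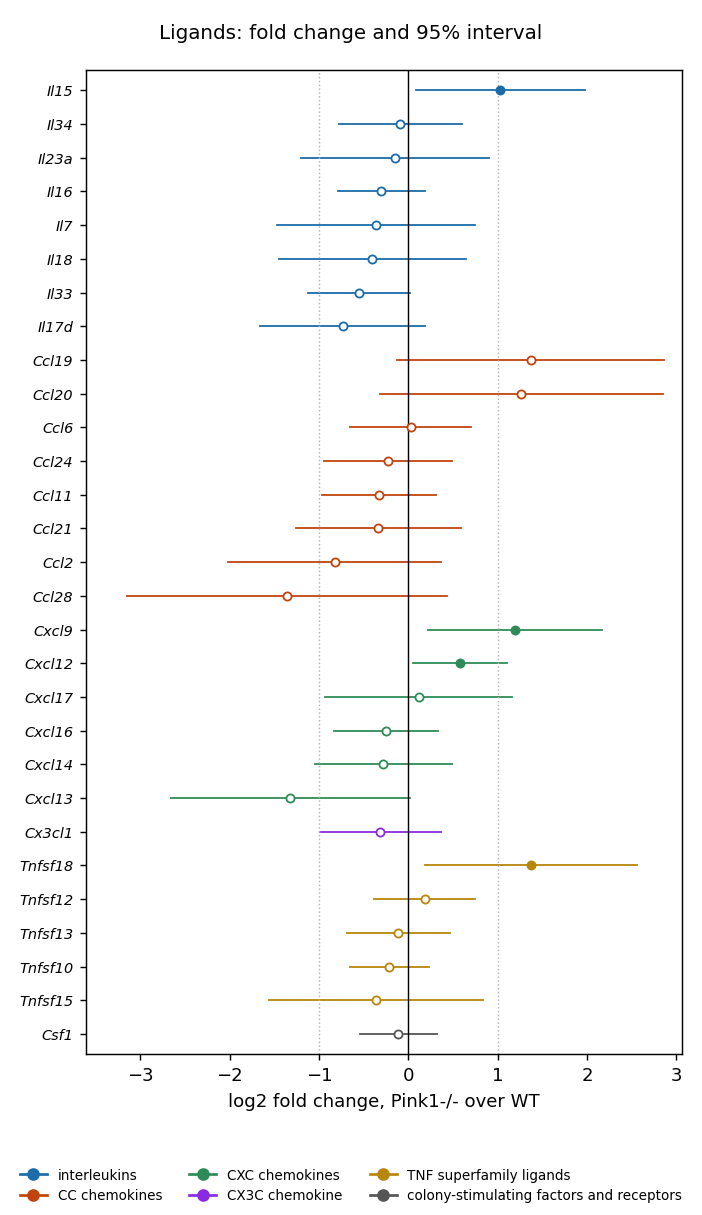
Each row is 1 ligand gene, with its log2 fold change (Pink1-/- over WT) as a point and the approximate 95% interval as a line, coloured by class. Filled points, with an unadjusted p under 0.05, are Il15, Cxcl9, Cxcl12 and Tnfsf18, all right of 0, and dotted lines mark a 2-fold change.

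The TNF receptor superfamily lay close to 0, with a median of -0.01 over 11 genes, 5 above 0 and none called, and 2 were above 0 with both genotypes scaled to the same summed CPM. Both TNF receptors were closely bounded. Tnfrsf1a, the widely expressed receptor, stood in the authors' deposited table at 0.02 with an interval from -0.39 to 0.43, and Tnfrsf1b, more a receptor of leukocytes and endothelium, at -0.03 with an interval from -0.49 to 0.44. Tnf itself had no row among the table's symbols. Tnfrsf9, a costimulatory receptor of T cells, had the smallest p of the class. It stood at -1.30 in the authors' deposited table (adjusted p 0.292), and its implied levels were 1.05 CPM (WT) and 0.425 CPM (Pink1-/-). Tnfrsf26 stood at 0.62 in the authors' deposited table (adjusted p 0.297). Tnfrsf8 (0.41), Tnfrsf19 (-0.04) and Tnfrsf21 (0.03) lay within the same range in the authors' deposited table. Of the pair that controls osteoclasts through Tnfsf11, the receptor Tnfrsf11a stood at -0.01 and the decoy Tnfrsf11b (osteoprotegerin) at -0.28 in the authors' deposited table.

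Of the 5 TNF superfamily ligands, 2 lay above 0 and none was called. Tnfsf18, a costimulatory ligand of T cells, stood at 1.37 in the authors' deposited table (adjusted p 0.208). Its implied level was 0.476 CPM in WT and 1.23 CPM in the Pink1-/- group, and it is 1 of 3 of the 88 genes that averaged under 1 CPM, with Tnfrsf9 and Il22ra2. Tnfsf12 (TWEAK), known in mice to act on muscle through Tnfrsf12a in atrophy, stood at 0.18 in the authors' deposited table (adjusted p 0.810). Tnfrsf12a stood at -0.33 in the authors' deposited table (adjusted p 0.729). Tnfsf10 (TRAIL), an inducer of cell death, stood at -0.21, and Tnfsf13, a survival factor of B cells, at -0.11, in the authors' deposited table. Tnfsf15 and its receptor Tnfrsf25 stood at -0.36 and 0.20 in the authors' deposited table.

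Colony-stimulating factors and their receptors had a median of 0.07 over 5 genes (-0.14 with the same summed CPM in both genotypes), with none called. Csf1, the growth factor of macrophages, stood in the authors' deposited table at -0.11, with an implied 51.0 CPM in WT and 47.1 CPM in Pink1-/-, and its interval ran from -0.55 to 0.32. Csf1r, its receptor, stood at 0.07 in the authors' deposited table (adjusted p 0.933), and its interval ran from -0.43 to 0.56. Csf3r, a receptor of neutrophils, stood at 0.95 in the authors' deposited table (adjusted p 0.338), and its implied levels were 1.07 CPM (WT) and 2.07 CPM (Pink1-/-). Csf2rb and Csf2ra, chains of the receptor for the granulocyte and macrophage factor, stood at 0.43 and -0.14 in the authors' deposited table. Il4i1, the enzyme, stood at -0.13 in the authors' deposited table (adjusted p 0.918).

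Classic cytokines were mostly without a row. Of 59 on a list of classic cytokines, 20 were found and 39 were not. Among interleukins, those not found were Il1a, Il1b, Il2, Il3, Il4, Il5, Il6, Il9, Il10, Il11, Il12a, Il12b, Il13, Il17a, Il17f, Il21, Il22 and Il27. Among TNF family and interferon genes they were Tnf, Lta, Ltb, Tnfsf11, Tnfsf13b, Ifng and Ifnb1, and among growth factors and other helical cytokines Csf2, Csf3, Osm and Tslp. Among chemokines they were Ccl3, Ccl4, Ccl5, Ccl7, Ccl22, Cxcl1, Cxcl2, Cxcl10, Cxcl11 and Xcl1. The lowest mean log2 CPM of any gene was -1.12 in the authors' deposited table. Which of these genes fell under a filter on low counts is not known here, and no statement about them follows from the 88 genes.

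Genes that carry these signals inside the cell were described from lists by name. Of 31 genes of TNF and NF-κB signalling, all were found, 1 was called and it was lower, with a median of -0.06 and 13 above 0. Over all genes 3.05% were called, 1.68% as lower. The called gene, Map3k7 (TAK1), is the kinase that links interleukin-1, Toll-like and TNF receptors to NF-κB and to stress kinases. Map3k7 fell by 0.96 (log2) in the authors' deposited table (adjusted p 0.0180), and its implied levels were 27.8 CPM (WT) and 14.3 CPM (Pink1-/-), with an interval from -1.47 to -0.44. With the likelihood ratios divided by their median excess, 14 genes were called in all (0.0952%) and the call of Map3k7 ended with an adjusted p of 0.588. Ripk1, the kinase that TNF receptors recruit, stood at -0.47 in the authors' deposited table (adjusted p 0.274). Of the 9 adaptors of interleukin-1 and Toll-like receptors none was called, and 2 lay above 0 with a median of -0.19. The 2 with the smallest p were the ubiquitin ligase Peli1 at -0.30 and the kinase Irak2 at -0.33 in the authors' deposited table (adjusted p 0.478 and 0.566).

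JAK kinases, STAT factors and their SOCS and PIAS inhibitors had a median of 0.01 over 23 of 25 genes, with 12 above 0 (-0.20 and 6 with the same summed CPM in both genotypes) and none called. Stat4 and Socs1 were not found. Stat5b, the STAT factor of growth hormone and of interleukin 2 and 15 signalling, stood at 0.93 in the authors' deposited table (adjusted p 0.0601), and its implied levels were 41.5 CPM (WT) and 79.0 CPM (Pink1-/-). Centring the median of all genes at 0 gave Stat5b an adjusted p of 0.0494, and scaling to equal summed CPM one of 0.136. Stat6, the STAT factor of interleukins 4 and 13, stood at -0.36 in the authors' deposited table (adjusted p 0.415). Members of the gp130 family with other symbols had a median of -0.09 over 8 of 9 genes, 3 above 0 and none called. Cntfr, the receptor chain for ciliary neurotrophic factor in muscle and neurons, stood at 0.89 in the authors' deposited table (adjusted p 0.0554), and its implied levels were 37.9 CPM (WT) and 70.3 CPM (Pink1-/-). That value became 0.0456 with the median of all genes at 0 and 0.136 with equal summed CPM. Clcf1, a cytokine that uses the same receptor, stood at -0.69 in the authors' deposited table (adjusted p 0.320).

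Of 15 genes of chemokine receptor signalling, 9 lay above 0 with a median of 0.19 (6 and -0.02 with the same summed CPM in both genotypes) and none was called, with 1 of the 15, Dock2, matched by another name in RefSeq. Pik3cg, a lipid kinase of leukocytes, stood at 0.55 and Gnai3, an inhibitory G protein subunit, at -0.47 in the authors' deposited table (adjusted p 0.241 and 0.254). Cytokines and receptors whose symbols follow other rules were found for 19 of 35, with a median of -0.08, 7 above 0 and none called. Ngfr, the TNF receptor family member that binds neurotrophins, stood at -1.23 in the authors' deposited table (adjusted p 0.0588), and its implied levels were 6.18 CPM (WT) and 2.64 CPM (Pink1-/-). Under scaling to equal summed CPM Ngfr was called, with an adjusted p of 0.0153. Relt, another TNF receptor family member, stood at 0.96 in the authors' deposited table (adjusted p 0.119). Of this last list, Mif, Xcr1, Ppbp, Flt3lg, Cd40, Cd40lg, Faslg, Cd27 and Cd70 were also not found, beside those named above.

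Markers of the cells that make or answer to these signals differed between the genotypes in part. In whole tissue, fewer cells of a type and less RNA per cell cannot be told apart. The muscle label fits the markers, since 7 of 8 skeletal muscle genes were found (Ttn was not), all above 0 and none called. By implied expression they summed to 41387 CPM in WT and 75448 CPM in Pink1-/-. Myh4, a myosin heavy chain, carried most of both sums and stood at 0.84 in the authors' deposited table (adjusted p 0.605). Squamous epithelium markers, found for 7 of 7, summed to 1532 CPM in WT and 720 CPM in Pink1-/-, all below 0 with 2 called (4 with the same summed CPM in both genotypes). The 2 were Krt13, a mucosal keratin, which fell by 1.30, and Dsc3, a desmosomal cadherin, which fell by 2.35, in the authors' deposited table. Gland and airway epithelium markers, found for 5 of 6, summed to 12296 CPM in WT and 881 CPM in Pink1-/-, with 2 called lower. Muc5b, a mucin, carried most of that sum with an implied 10735 CPM in WT and 633 CPM in Pink1-/-, and was not called (adjusted p 0.150 in the authors' deposited table). Scgb1a1, a secretoglobin of airway epithelium, stood at 0.49 in the authors' deposited table. Of members known from epithelia, in a grouping made after their values were seen, Il1rn, Il1r2, Il33, Il17re, Ccl28 and Cxcl14 lay below 0. Ccl20 (1.27) and Cxcl17 (0.12, below 0 with the same summed CPM in both genotypes) lay above it in the authors' deposited table. The part of the epithelium in these values was not tested. Nerve and Schwann cell markers, found for 8 of 8, summed to 375 CPM and 186 CPM with 5 called lower, and Ngfr, a gene of Schwann cells, stood at -1.23 beside them in the authors' deposited table. The part of nerve in that value was not tested.

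Among leukocyte markers the calls were Mcpt1, 1 of 6 mast cell genes found, and Lcn2, 1 of 3 neutrophil genes found. Over all genes 3.05% were called. The 6 general leukocyte genes summed to 98.4 CPM in WT and 109 CPM in Pink1-/-, with a median of 0.37 and none called, among them Ptprc (CD45) at 0.31 in the authors' deposited table. Macrophage markers, found for 13 of 14, summed to 363 CPM and 420 CPM with a median of 0.16, 10 above 0 and none called. With the same summed CPM in both genotypes that median was -0.05 with 5 above 0, and the general leukocyte genes summed to 98.4 CPM in WT and 93.9 CPM in Pink1-/-. Mast cell markers, found for 6 of 6, summed to 40.8 CPM and 84.5 CPM with 5 above 0. Of these Mcpt1, a mast cell protease, rose by 1.50 in the authors' deposited table (adjusted p 0.00477). Mcpt1 carried most of the difference between those sums. The other mast cell genes, none called, ran from -0.22 for Cma1 to 0.48 for Cpa3 in the authors' deposited table. Of 10 T and natural killer cell markers only Cd4 was found, at 0.27 in the authors' deposited table, and Cd3e, Cd3d, Cd3g and Cd8a were not. Of 7 B and plasma cell markers Jchain and Mzb1 were found, at 1.06 and 0.84 in the authors' deposited table, with no call. Of 8 neutrophil markers 3 were found, all below 0, with a sum of 6.25 CPM in WT and 1.31 CPM in Pink1-/-. S100a8 and S100a9, both under 1 CPM on average and not called, stood at -1.16 and -0.89 in the authors' deposited table. Lcn2, which epithelia also make, fell by 4.39 in the authors' deposited table. Lcn2 carried most of the fall in the neutrophil sum. Its mean log2 CPM was 1.23, beside -0.14 for S100a8 and -0.19 for S100a9, in the authors' deposited table. Dendritic cell markers (3 of 5 found, median 0.51) and endothelial markers (6 of 7 found, median 0.01, and -0.20 with the same summed CPM in both genotypes) held no call. Adipocyte markers (5 of 5 found) held none either, with a median of -0.72 and 1 above 0. Their sum went the other way, from 94.4 CPM in WT to 162 CPM in Pink1-/-, carried by Fabp4, a fatty acid binding protein, at 0.92 in the authors' deposited table. Of the fibroblast markers (5 of 6 found, median -0.56) Thy1 was called lower, at -1.73 in the authors' deposited table. With divided likelihood ratios, 12 of the 13 calls among the signalling and marker lists ended, and that of Lcn2 held (adjusted p 0.00514).

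**Figure D5:**
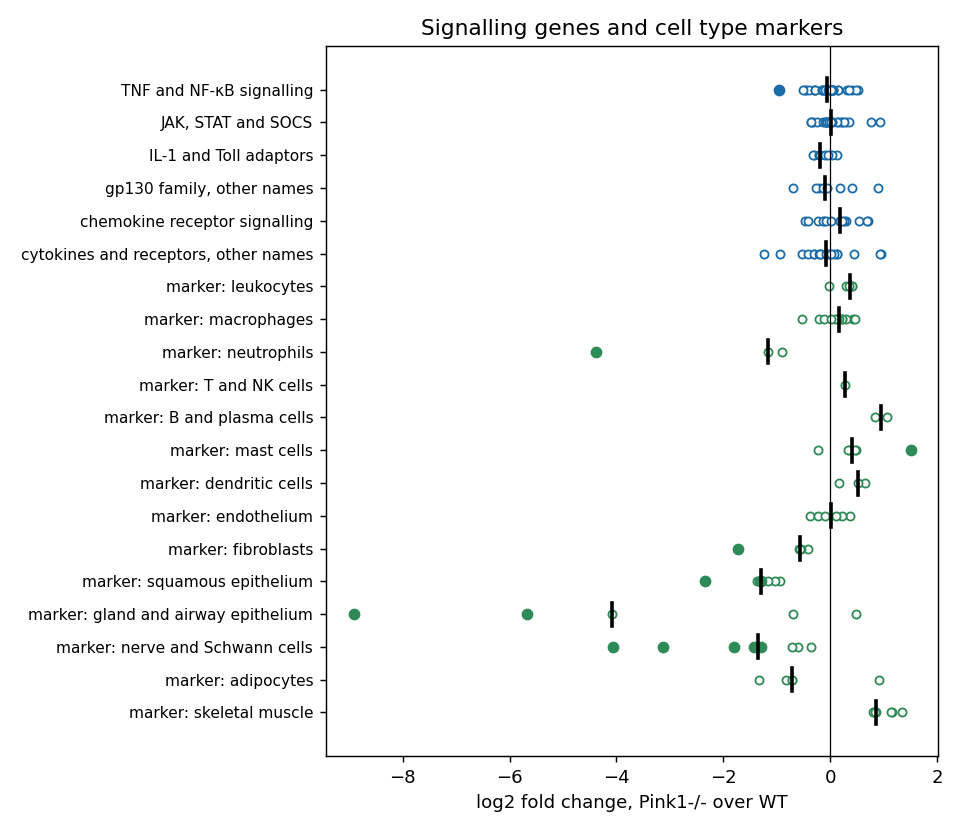
Each row is 1 gene list, with signalling lists in blue and cell type markers in green, and each point is the log2 fold change (Pink1-/- over WT) of 1 gene on the x axis. Filled points have an adjusted p under 0.05 and black bars are medians, which run from -4.08 for gland and airway epithelium to 0.95 for B and plasma cells.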

How the data were processed

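Gene expression was measured by RNA sequencing of muscle from 4 WT and 3 Pink1-/- rats. RSEM and edgeR 3.9 are named, with no role, per the submitters' processing notes. No source used here gives the aligner, genome build, annotation, strand use, low-count filter or library scaling. The authors' deposited table holds, per the file headers, for each gene a log2 fold change and mean log2 CPM, a likelihood ratio score, and the p-value before and after adjustment. It holds no values per library, so depth and spread between rats are unknown and no model was refitted. Each rat is labelled separately, so the p-values are those of 4 against 3 animals.

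From these values an SE was computed (size of the log2 fold change over the square root of the likelihood ratio), with 95% intervals. An implied CPM per genotype was also computed, with equal library sizes assumed. Python 3.11.15, pandas 2.3.3, numpy 2.4.6 and scipy 1.17.1 were used. How close the SE, intervals and implied CPM come to a fit of the counts was not tested. Intervals are poor for genes near 0 counts. Calls were made where the adjusted p over all 14702 genes was under 0.05. Named by rule were all called members and, in each class, the 3 smallest p and the 3 highest mean log2 CPM. In each signalling list they were the called genes and the 2 smallest p. Values of other members are given beside those named by rule. The members and lists were chosen with earlier results of these data known. Alternatives were other thresholds, 2 scalings, divided likelihood ratios, a filter at 1 CPM and another choice for repeated symbols. One member counted in the totals is not reported here by name. Overlapping and antisense genes may share reads.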

Additional observations from a re-analysis of the deposited data

How the results depend on the processing

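With none of the 88 genes called, the count stayed at 0 with a threshold of 0.1, with the median of all genes at 0 and with a minimum of 1 CPM. It could not rise at a threshold of 0.01 or with divided likelihood ratios, which only raise p. Nor could the other choice for repeated symbols change it, since no symbol of the 88 occurred more than once. Scaling to equal summed CPM gave 1 call, which was lower (Il1rap), and moved the median to -0.33. That scaling lowers every value by 0.21, and the number of the 88 genes above 0 went from 33 to 19. Of the genes named by rule and reported here, those that turned below 0 were Ccl6 (-0.18), Csf1r (-0.14), Il11ra1 (-0.12), Tnfrsf1a (-0.19), Tnfrsf21 (-0.18) and Tnfsf12 (-0.029), none of them called. Over all genes, calls numbered 448, and 177 at 0.01, 773 at 0.1 and 14 with divided likelihood ratios, and the split of 201 higher and 247 lower became 63 higher and 568 lower with equal summed CPM. The smallest adjusted p among the 88 genes ran from 0.0226 with equal summed CPM to 0.871 with divided likelihood ratios. Leaving out each replicate was not run, since it needs values per library. No paired analysis was possible because the table holds no values per library and the labels give no shared replicate numbers. Unknown depth limits what can be said of weakly expressed genes.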
